A study of Mus musculus with 4 samples.

Results

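The complement components and regulators are 29 genes, picked by symbol from the read counts of mouse liver and sorted here by classical, lectin, alternative and terminal arm, with the central component C3, regulators and receptors apart. All 29 were found, each in 1 row, among 35275 listed genes. The question put to them was how complement RNA in the liver stood after interval exercise training (IT), after induction of AApoAII amyloidosis (deposits of apolipoprotein A-II), and after both.

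Livers came from female mice that the study calls R1.P1-Apoa2c, with an Apoa2c allele that favours amyloid, bred onto SAMR1, while the labels give the strain as AKR/J with an Apoa2c congenic genotype. All groups carried this allele, and all livers were taken at 26 weeks of age. VS mice received vehicle and stayed sedentary, VI mice received vehicle and 16 weeks of IT on a treadmill, FS mice received AApoAII fibrils and stayed sedentary, and FI mice received fibrils and IT. Tissue from 4 mice went into 1 pool per group, and the 16 mice thus gave 4 libraries. With 1 library per group, no value below has a replicate error, and the spread between mice cannot be seen.

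Complement is a chain of plasma proteases and binding proteins that tags surfaces and, at its end, builds a pore. Antibody complexes start the classical arm through C1, sugars on surfaces start the lectin arm, and slow turnover of C3 feeds the alternative arm. All arms meet at the cleavage of C3, and the terminal components then join into the membrane attack complex. Hepatocytes make most of the circulating proteins, macrophages make some of them, and complement proteins are known constituents of amyloid deposits.

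Total counts were between 23442935 in VS and 28814802 in FS. A count of 0 allows up to 3 counts, at most 0.127 CPM (counts scaled to libraries of 1000000 by the TMM method) in any library, a limit for counting error only. The liver label was matched by 8 of 8 hepatocyte markers, whose summed level lay between 159700 CPM in VS and 177500 CPM in FI. The VS library stood apart in skeletal muscle RNA, where Acta1, Ckm, Myh4 and 7 further genes summed to 75.4 CPM, and to 9.40 CPM (VI), 0.982 CPM (FS) and 0.827 CPM (FI). Results that rest on VS are therefore set beside the contrasts FI over FS and FI over VI, which do not use that library. The part of this RNA in any result was not tested.

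Complement RNA was a large item in these livers. The 29 genes took 1.77% of all counts (VS), 2.06% (VI), 2.21% (FS) and 2.20% (FI). C3 alone held 45.1% of the complement counts in VS and 52.4% in FI. Per length (FPKM, fragments per kilobase scaled to the library total, as deposited), the most abundant member was C3 with a mean over the 4 libraries of 1955 FPKM, followed by vitronectin (Vtn, 1583 FPKM), clusterin (Clu, 799 FPKM) and the C1 inhibitor gene Serping1 (508 FPKM). At the other end stood Cfb at 0.825 FPKM, C5ar1 at 0.478 FPKM, C3ar1 at 0.386 FPKM, C7 at 0.337 FPKM and Cfd at 0.144 FPKM.

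**Figure D1:**
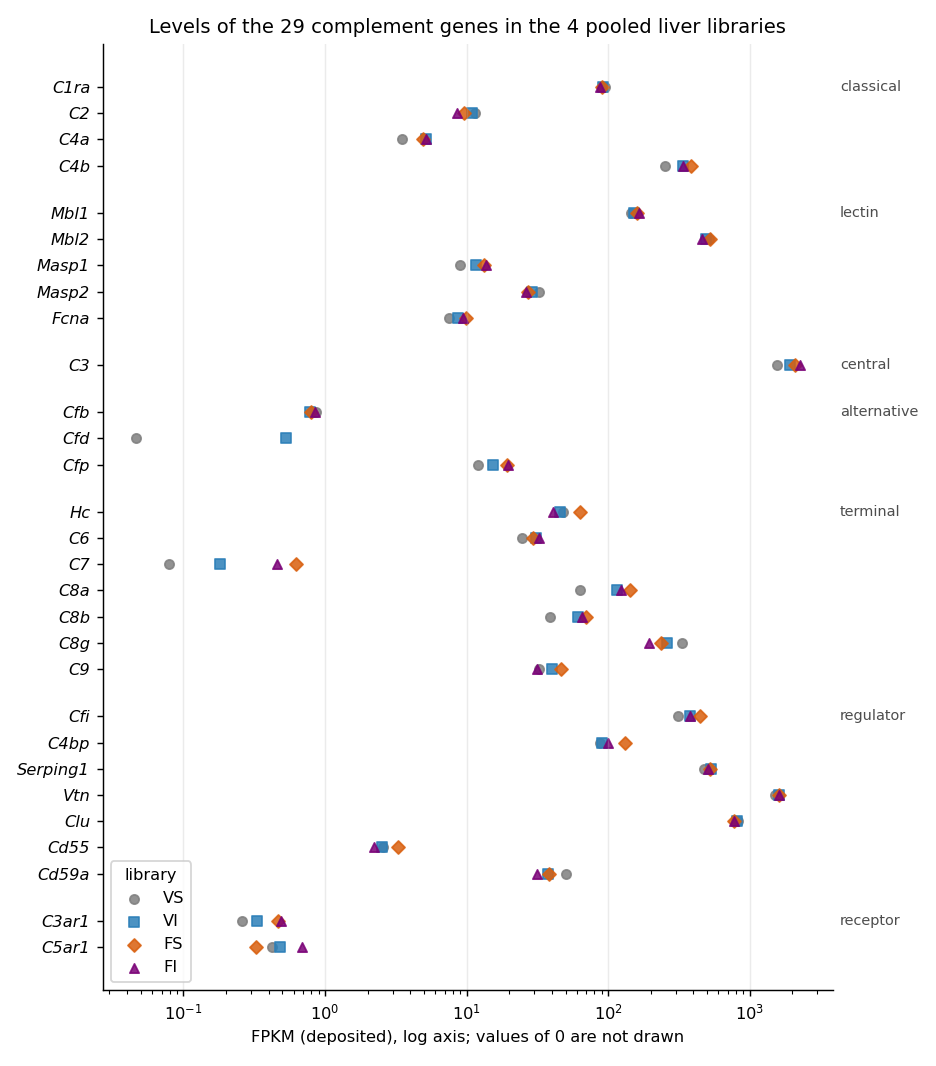
Deposited FPKM on a log axis for the 29 genes, grouped by arm, with 1 symbol for each pooled library. C3 lies between 1549 and 2248 FPKM, the receptors and C7 lie below 1 FPKM, and the grey VS symbol is the leftmost for C7, C8a, C8b, C4b and C3.

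Ratios were formed for the 28 members that reached 1 CPM in 1 library or more, and a ratio beyond 2-fold was counted. For FS over VS, 2 of 28 members were higher by more than 2-fold, C7 and C8a, against 3.6% of 12180 genes, and none was lower, against 2.2%. For VI over VS, only C7 was higher beyond 2-fold, against 1.54% of genes, with none lower, against 1.9%. For FI over FS, only C5ar1 was higher, against 1.75%, with none lower, against 2.53%. For FI over VI, C7 was the one higher member, against 2.59%, with none lower, against 1.95%. C7 and C5ar1 rest on 5 to 49 counts a library, so C8a is the only member with more than 100 counts that passed 2-fold. C7 reached 1 CPM in FS and FI only, and was thus counted through the libraries where it was high. These contrasts share libraries, since each library enters 2 of the 4.

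Smaller differences were more common. At 1.5-fold, 5 of 28 members were higher in FS than in VS (C7, C8a, C8b, Cfp and C3ar1), against 10.1% of genes, and 4 were higher in VI than in VS (C7, C8a, C8b and C4a), against 5.34%. Without VS, 1 member passed 1.5-fold upwards for FI over FS (C5ar1), against 5.98% of genes, and 1 for FI over VI (C7), against 7.9%. Lower beyond 1.5-fold were 0 members in any contrast. Of 12180 genes, 767 were lower for VI over VS, 919 for FI over FS, 910 for FS over VS and 740 for FI over VI. The median log2 ratio of the 28 members was 0.34 for FS over VS and 0.20 for VI over VS, where all genes had medians of 0.02 and 0.0035. Without the VS library, the members' median was 0.02 for FI over FS and 0.03 for FI over VI, beside 0.0017 and 0.01 for all genes. The sign for FI over FS turned with the scaling, to −0.05 with total counts, and the median for VI over VS was 0.09 on FPKM with a pseudocount of 1. VS was the lowest of the 4 libraries for 17 of 28 members, a pattern singled out after its values were seen, and for 29.7% of all genes. In bulk tissue, fewer cells of a type and less RNA per cell cannot be told apart.

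**Figure D2:**
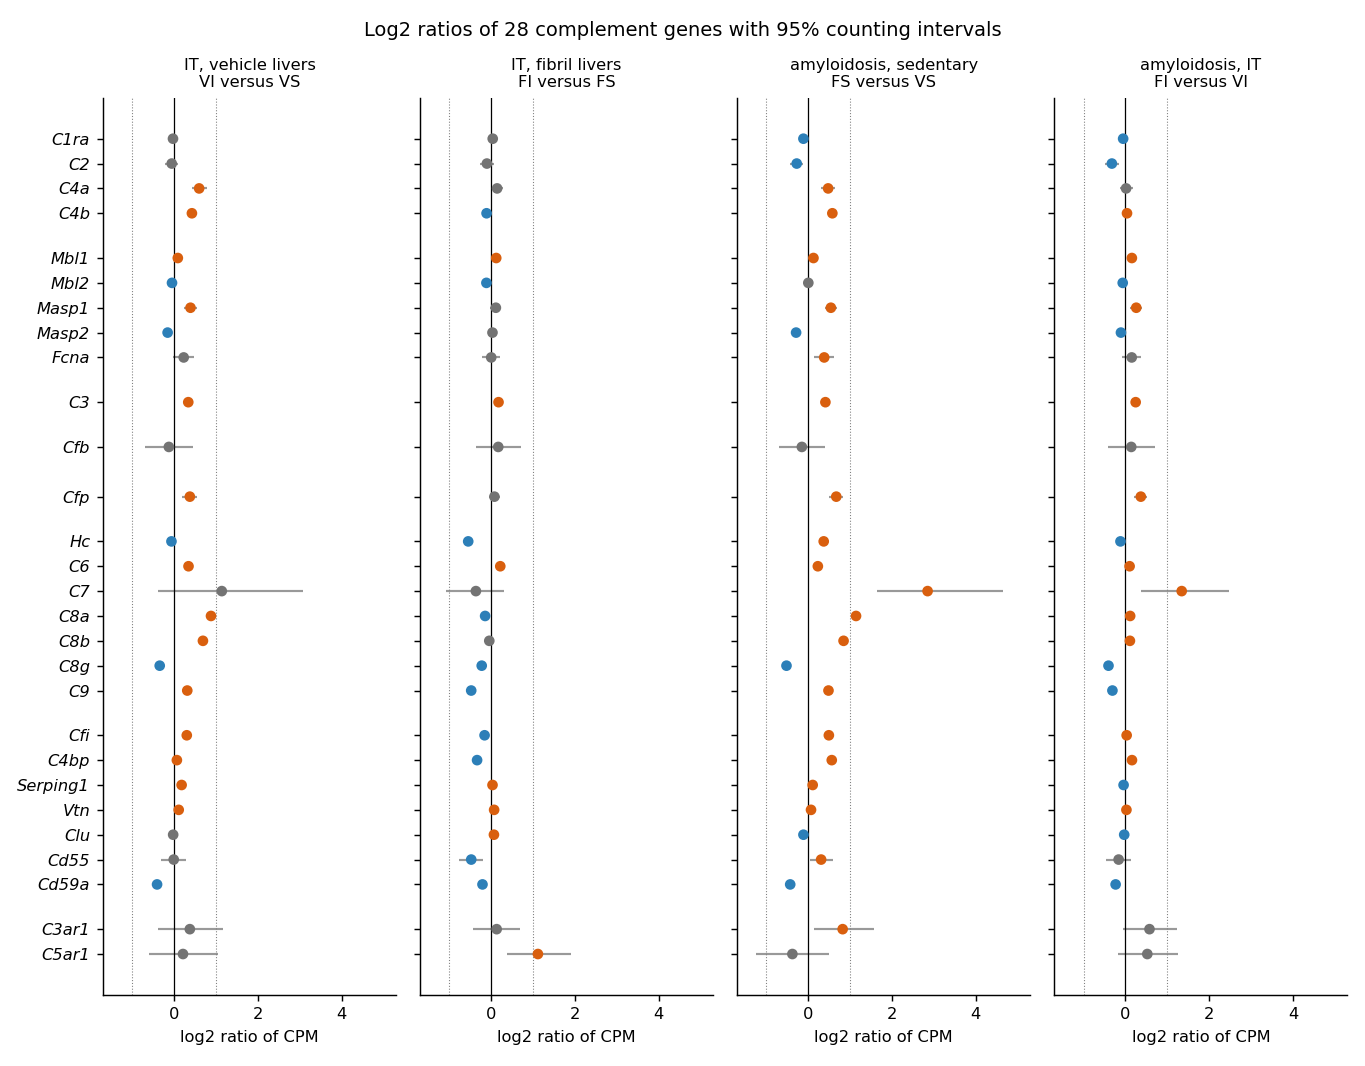
Log2 ratios of CPM for 28 members in the 4 contrasts, with 95% counting intervals as lines, dotted lines at 2-fold, and colour where the interval leaves out 0 (orange higher, blue lower). C8a, C8b and C4b lie to the right in both contrasts against VS and near 0 for FI over VI, while C8g and Cd59a lie to the left in all 4 panels.

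The classical arm was led by C4b, a main source of the C4 opsonin and of the classical C3 convertase, at a mean of 328 FPKM. C4b stood at 1352 CPM (VS), 1817 CPM (VI), 2014 CPM (FS) and 1866 CPM (FI). VS was thus the low library and the other 3 lay close together. Its log2 ratio was 0.57 (0.55 to 0.59) for FS over VS and 0.43 (0.41 to 0.45) for VI over VS. Between the fibril livers the sign was opposite, at −0.11 (−0.13 to −0.09) for FI over FS, and FI over VI was at 0.04 (0.02 to 0.06). Here and below, ranges in brackets are 95% Clopper-Pearson intervals, which cover counting error only.

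C4a, the near copy known as sex-limited protein, lay at 18.5 CPM in VS and between 25.7 and 28.4 CPM in the other libraries. Reads of the pair can be split in error. The longest listed transcripts of both genes were identical at 96.1% of 5367 aligned bases, and 22.7% of the 75-base words of C4b, like 19.7% of those of C4a, occur in the other gene. Within each library C4b held 64.7 to 78.2 times the FPKM of C4a, so a small share of misplaced C4b reads could fill the C4a row, and the treatment of such reads is not stated. The stretch of 60 bases in which the pair differs most lies in exon 21 of both transcripts, and is shown to mark where reads do tell them apart, with the 13 differing bases in capitals (GENCODE M21, GRCm38, minus strand, chr17:34735430-34735489 for C4b and chr17:34816086-34816145 for C4a):
C4b: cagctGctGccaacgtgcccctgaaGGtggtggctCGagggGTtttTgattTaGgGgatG
C4a: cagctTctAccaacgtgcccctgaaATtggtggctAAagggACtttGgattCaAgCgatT

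C1ra and C2 differed little between libraries. C1ra, a serine protease of the C1 complex, lay between 241 CPM in FS and 261 CPM in VS, and 42.4% of its 75-base words occur in C1rb or Gm18840. C2, the protease of the classical and lectin convertase, lay between 23.2 CPM in FI and 30.2 CPM in VS and was lower in the fibril livers in both pairs. The log2 ratio of C2 was −0.28 (−0.43 to −0.13) for FS over VS and −0.32 (−0.49 to −0.16) for FI over VI. These ratios rest on a partly shared gene model, which is described with Cfb.

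Of the lectin arm, both mannose-binding lectins were nearly level. Mbl2, the most abundant at a mean of 495 FPKM, stood at 559 CPM (VS), 541 CPM (VI), 560 CPM (FS) and 517 CPM (FI). Its highest library was thus 1.08 times its lowest. Mbl1 lay between 133 CPM in VS and 158 CPM in FI.

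The proteases that ride on these lectins differed from each other. Masp1, which activates Masp2, was at 24.6 CPM (VS), 32.3 CPM (VI), 35.8 CPM (FS) and 38.7 CPM (FI), higher in the fibril livers in both pairs. Masp2, which cleaves C4 and C2, was at 99.3 CPM in VS and between 81.2 and 89.3 CPM elsewhere. For Masp2, 54.9% of the exonic bases lie under exons of Tardbp on the other strand, a gene with 1714 to 2099 counts a library. Whether strand was used in counting is not stated, so the Masp2 counts could hold Tardbp reads or lack their own. Fcna, a ficolin of macrophages that recognises acetylated sugars, lay between 10.3 CPM in VS and 13.4 CPM in FS and FI.

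C3, the component on which all arms converge, had 186477 counts in VS and 309408 in FS. Its level was 7897 CPM (VS), 9991 CPM (VI), 10480 CPM (FS) and 11840 CPM (FI). C3 was thus lowest in VS, highest in FI, and higher in every pair that differed by IT or by fibrils. On the log2 scale the ratio was 0.34 (0.33 to 0.35) for VI over VS, 0.18 (0.17 to 0.18) for FI over FS, 0.41 (0.40 to 0.42) for FS over VS and 0.24 (0.24 to 0.25) for FI over VI. With TMM scaling, C3, Mbl1, C6 and Vtn were the members whose 4 intervals all lay above 0. With total counts, the ratio of Vtn was −0.0004 for FI over FS and −0.0021 for FI over VI.

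The alternative arm had 3 members at very different levels. Properdin (Cfp), which stabilises the alternative convertase and is made mainly by myeloid cells, was the most abundant at a mean of 16.6 FPKM. Cfp stood at 19.5 CPM (VS), 25.4 CPM (VI), 31.0 CPM (FS) and 32.7 CPM (FI). Both fibril libraries were above both vehicle libraries, with log2 ratios of 0.67 (0.51 to 0.83) for FS over VS and 0.37 (0.21 to 0.52) for FI over VI. Kupffer cell markers were also higher in the fibril libraries: all 8 were detected in every library, and 8 of 8 were higher in FS than in VS and in FI than in VI. All 8 were higher in VI than in VS as well, while 3 of 8 were higher in FI than in FS. The sum of the Kupffer cell markers was 215 CPM (VS), 267 CPM (VI), 336 CPM (FS) and 317 CPM (FI). Monocyte markers summed to 44.0, 37.9, 79.8 and 60.9 CPM in the same order, most of it Lyz2. Chil3 had 0, 0, 3 and 2 counts, none above the 3 that a 0 allows. The part of these cells in the Cfp, Fcna and C3ar1 values was not tested.

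Factor B (Cfb), the protease of the alternative convertase, had only 56 (VS), 53 (VI), 63 (FS) and 58 (FI) counts. These are 2.37, 2.18, 2.13 and 2.40 CPM, with no contrast whose interval left out 0. Per length, C3 was between 1784 times Cfb in VS and 2645 times Cfb in FI. The gene (chromosome 17, 34856374 to 34862518, minus strand) shares 79.5% of its exonic bases on the same strand with Gm20547, a read-through gene model that runs from C2 into Cfb, and 69.9% of its 75-base words occur there. Gm20547 was listed with 0 counts in all 4 libraries. C2 shares 42.8% of its exonic bases with the same model. A read on exons of both genes may be left out of either count, depending on a counting setting that is not stated, so the low level of Cfb cannot be read as the level of its RNA, and its near equal counts do not show that Cfb was level.

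**Figure D3:**
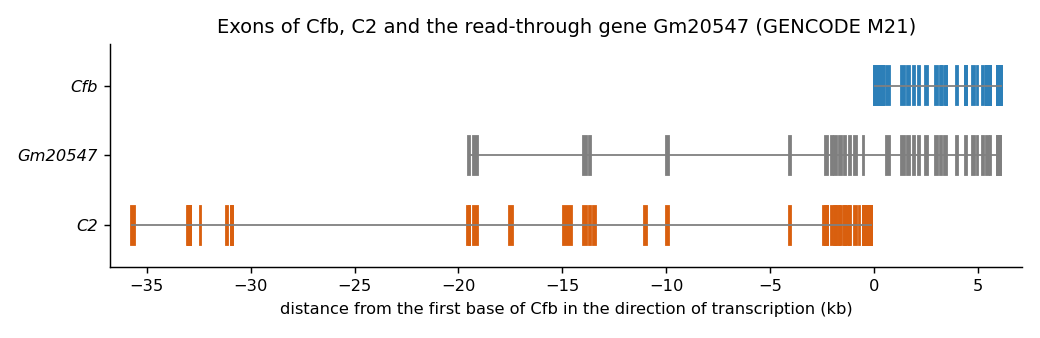
Exons of Cfb, the read-through model Gm20547 and C2 as boxes in GENCODE M21, against distance in kb from the first base of Cfb in the direction of transcription. Most Cfb exons and many C2 exons lie under an exon of Gm20547, the gene listed with 0 counts.

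Factor D (Cfd, adipsin), known as an adipocyte product, had 1 count in VS, 12 in VI and 0 in FS and FI, and is the member under 1 CPM in every library. The adipocyte markers Lep, Adipoq and Plin1 were at 0 to 0.0411 CPM in all 4 libraries. Retn had 1 (VS), 1 (VI), 0 (FS) and 0 (FI) counts, and Aqp7 had 3, 1, 0 and 0, none above the 3 counts that a 0 allows. Adipoq had 1 count, in FS, and Plin1 had 1 count, in VI. Of the other adipocyte markers, Fabp4, Cidec and Lipe were detected in each library, and the sum of all 8 was 17.9 to 23.6 CPM. The part of this RNA in the Cfd counts was not tested.

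The terminal arm held the members with the largest ratios for FS over VS and VI over VS among the 28, and its 3 C8 chains did not move together. C8 is a protein of an alpha, a beta and a gamma chain, encoded by C8a, C8b and C8g. C8a and C8b lie next to each other on chromosome 4 (C8a from 104815679 to 104876398 on the minus strand, C8b from 104766317 to 104804548 on the plus strand), and C8g, which encodes a lipocalin, lies on chromosome 2 (25498651 to 25501719, minus strand).

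C8a was at 229 CPM (VS), 422 CPM (VI), 504 CPM (FS) and 456 CPM (FI). VS was the low library by far, and the other 3 spanned 422 to 504 CPM. As a log2 ratio this was 1.14 (1.09 to 1.18) for FS over VS and 0.88 (0.83 to 0.93) for VI over VS. Between libraries other than VS it was −0.14 (−0.18 to −0.11) for FI over FS and 0.11 (0.07 to 0.15) for FI over VI. The log2 ratio for IT was thus lower by 1.03 in fibril than in vehicle livers, a difference of −1.03 with a counting interval of −1.09 to −0.97.

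C8b had the same order of libraries, at 85.7 CPM (VS), 138 CPM (VI), 154 CPM (FS) and 149 CPM (FI). Its log2 ratio was 0.84 (0.77 to 0.92) for FS over VS, 0.69 (0.61 to 0.77) for VI over VS and 0.11 (0.04 to 0.18) for FI over VI. For FI over FS it was −0.05 (−0.11 to 0.02), an interval that held 0, and it was −0.12 with total counts.

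C8g ran the other way, at 382 CPM (VS), 301 CPM (VI), 266 CPM (FS) and 228 CPM (FI). VS was its highest library and FI its lowest, with every pair lower under IT or fibrils. The log2 ratio came to −0.34 (−0.39 to −0.30) for VI over VS, −0.23 (−0.28 to −0.18) for FI over FS, −0.52 (−0.56 to −0.48) for FS over VS and −0.40 (−0.45 to −0.35) for FI over VI. Within a library, which needs no scaling between libraries, the FPKM of C8a was 0.191 times that of C8g in VS, 0.445 times in VI, 0.602 times in FS and 0.637 times in FI. C8a over C8b kept a narrower range, from 1.65 in VS to 2.03 in FS.

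The 250 bases upstream of each start are shown for the 3 C8 genes, whose RNAs differ in direction, and for C3, the most abundant member (RefSeq, GRCm38.p6, written 5′ to 3′ on the gene's strand). Capitals mark a STAT3 motif (TTCNNNGAA) or a C/EBP motif (TTGCNNAA), the binding motifs of factors that act on liver acute phase genes. Positions are counted back from the start.
C8a, chr4:104876399-104876648, minus strand: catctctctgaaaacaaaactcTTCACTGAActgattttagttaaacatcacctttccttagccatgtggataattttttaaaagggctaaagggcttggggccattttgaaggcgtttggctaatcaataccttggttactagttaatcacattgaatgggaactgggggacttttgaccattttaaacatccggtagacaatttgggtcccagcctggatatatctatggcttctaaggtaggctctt
C8b, chr4:104766067-104766316, plus strand: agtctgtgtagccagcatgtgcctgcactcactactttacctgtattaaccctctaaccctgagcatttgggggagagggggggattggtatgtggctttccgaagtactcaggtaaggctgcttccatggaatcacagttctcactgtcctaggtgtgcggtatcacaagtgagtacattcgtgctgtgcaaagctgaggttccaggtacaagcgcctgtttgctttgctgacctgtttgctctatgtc
C8g, chr2:25501720-25501969, minus strand: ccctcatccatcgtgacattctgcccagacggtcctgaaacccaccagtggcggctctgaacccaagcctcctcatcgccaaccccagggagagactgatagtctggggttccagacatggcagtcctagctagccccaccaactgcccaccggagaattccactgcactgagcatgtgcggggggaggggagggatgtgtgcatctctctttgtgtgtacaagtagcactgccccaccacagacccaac
C3, chr17:57228137-57228386, minus strand: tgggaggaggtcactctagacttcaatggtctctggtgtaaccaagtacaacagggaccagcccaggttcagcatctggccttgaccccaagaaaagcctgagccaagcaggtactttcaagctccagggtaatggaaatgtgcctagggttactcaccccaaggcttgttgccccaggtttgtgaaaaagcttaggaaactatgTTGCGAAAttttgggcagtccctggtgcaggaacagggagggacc

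C8a held 1 STAT3 motif, beginning at position −228, and C3 held 1 C/EBP motif, beginning at position −45. Neither motif was in the windows of C8b and C8g, and an NF-κB consensus, searched as well, was in none of the 4. Both strands were searched, and the STAT3 motif was present in 7.02%, the C/EBP motif in 9.56% and the NF-κB consensus in 7.25% of 32851 windows of the same length. Of the 29 members, 21 had a promoter in the table: C7, C8a and Masp2 held the STAT3 motif, C3 and C9 the C/EBP motif, and none the NF-κB consensus. These are matches of letters in a short window and do not show binding.

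Hc, which encodes C5, showed another pattern, at 260 CPM (VS), 249 CPM (VI), 335 CPM (FS) and 229 CPM (FI). Only FS stood out. Log2 ratios were 0.37 (0.32 to 0.41) for FS over VS and −0.55 (−0.60 to −0.50) for FI over FS, with FI over VI at −0.12 (−0.17 to −0.07). AKR/J mice are known to carry an allele of Hc that leaves serum without C5, and which allele these mice carry was not analysed here.

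C9, the component that polymerises into the pore, also had its highest value in FS. It was at 66.1 CPM (VS), 82.2 CPM (VI), 92.3 CPM (FS) and 66.3 CPM (FI), so that VS and FI were level. The log2 ratio was 0.32 (0.22 to 0.41) for IT in vehicle livers and −0.48 (−0.57 to −0.39) for IT in fibril livers. For fibrils it was 0.48 (0.39 to 0.57) in sedentary livers and −0.31 (−0.41 to −0.21) in IT livers.

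C6, which binds C5b first, lay between 82.9 CPM in VS and 113 CPM in FI and was higher under IT in both pairs. C7, which anchors the growing complex in the membrane, had 5 (VS), 12 (VI), 49 (FS) and 31 (FI) counts. These are 0.212, 0.493, 1.66 and 1.28 CPM, with both fibril libraries above both vehicle libraries. Log2 ratios were 2.85 (1.65 to 4.66) for FS over VS and 1.34 (0.38 to 2.48) for FI over VI, while VI over VS, at 1.14 (−0.39 to 3.08), could not be told from 0 at this depth. Beside it, stellate cell markers summed to 249, 212, 226 and 244 CPM in VS, VI, FS and FI, and the 6 mesothelial markers to between 0.534 and 1.31 CPM, with Muc16 at 0 in each library; their part was not tested.

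**Figure D4:**
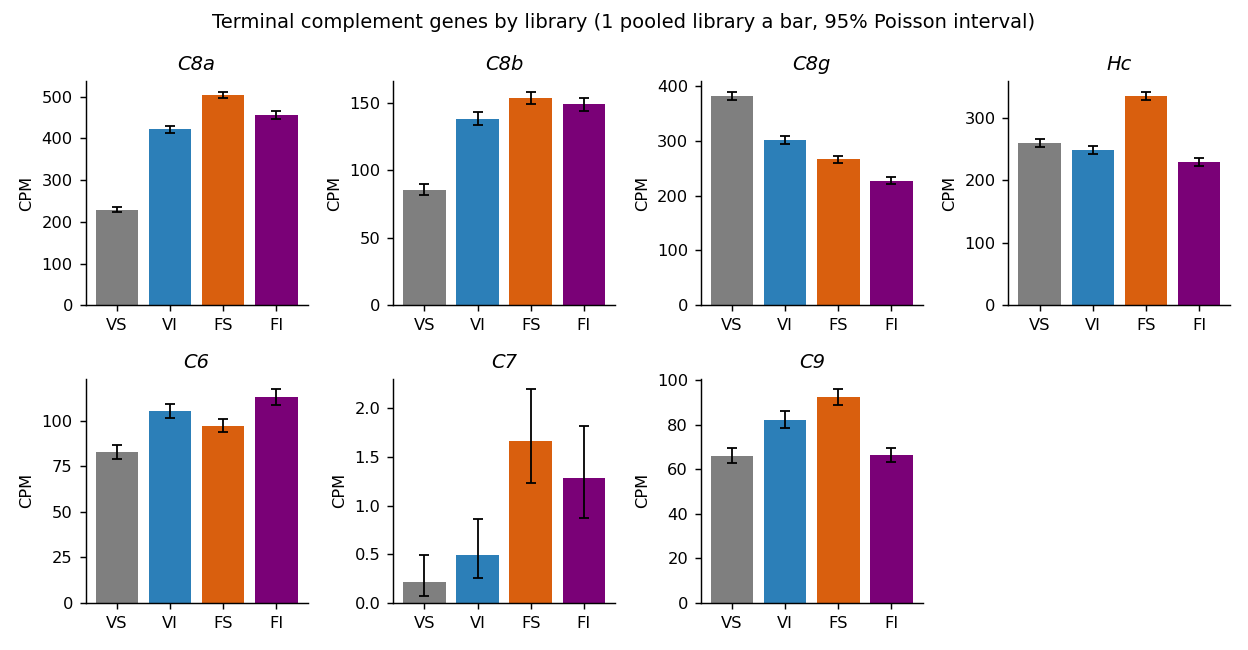
CPM of the 7 terminal genes, 1 bar for each pooled library, with 95% exact Poisson intervals as error bars. C8a and C8b are lowest in VS, C8g is highest in VS, Hc and C9 are highest in FS, and the C7 bars stay below 2 CPM with wide intervals.

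Among the regulators, the most abundant by length, vitronectin (Vtn), which blocks pore insertion, was close to level at 2614 CPM (VS), 2824 CPM (VI), 2735 CPM (FS) and 2872 CPM (FI). Clusterin (Clu), a further fluid-phase inhibitor and extracellular chaperone, lay between 1379 CPM in FS and 1494 CPM in VS. Serping1, the inhibitor of C1 and of the Masp proteases, was at 834 CPM (VS), 946 CPM (VI), 897 CPM (FS) and 918 CPM (FI). For these 3 the highest library was 1.08 to 1.13 times the lowest.

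Factor I (Cfi), the protease that inactivates C3b and C4b, was at 638 CPM (VS), 787 CPM (VI), 896 CPM (FS) and 804 CPM (FI). Its order of libraries was that of C8a and C4b. The log2 ratio was 0.49 (0.46 to 0.52) for FS over VS, 0.30 (0.27 to 0.33) for VI over VS and −0.16 (−0.18 to −0.13) for FI over FS, and FI over VI was at 0.03 (0.0006 to 0.06).

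C4bp, which encodes the C4b-binding protein, a cofactor of factor I, had a single high library. It was at 336 CPM (VS), 352 CPM (VI), 496 CPM (FS) and 393 CPM (FI). The log2 ratio came to 0.56 (0.52 to 0.60) for FS over VS, 0.16 (0.11 to 0.20) for FI over VI and −0.34 (−0.37 to −0.30) for FI over FS.

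Of the membrane-bound regulators, Cd55, which speeds the decay of convertases, lay between 7.15 CPM in FI and 9.96 CPM in FS. Cd59a, which stops C9 from polymerising in the membrane, was at 90.2 CPM (VS), 68.1 CPM (VI), 66.9 CPM (FS) and 57.9 CPM (FI). It was lower in every pair under IT or fibrils, as C8g was.

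Both receptors for the small cleavage fragments had few counts. C5ar1, the C5a receptor of myeloid cells, had 25 (VS), 30 (VI), 24 (FS) and 43 (FI) counts, at 1.06, 1.23, 0.813 and 1.78 CPM. The log2 ratio of C5ar1 was 1.12 (0.38 to 1.91) for FI over FS and 0.21 (−0.60 to 1.04) for VI over VS, which could not be told from 0 at this depth. Neutrophil markers, of which 2 of 10 reached 1 CPM, summed to 2.33, 2.55, 5.83 and 3.97 CPM in VS, VI, FS and FI. Mpo had 1 count, in FS, while Ltf had 1, 2, 0 and 0 counts in the same order. None of these is above the 3 counts that a 0 allows. The part of neutrophils in the C5ar1 values was not tested. C5ar1 was the more abundant receptor by mean FPKM over the 4 libraries, though in FS it was at 0.328 FPKM and C3ar1 at 0.468 FPKM. C3ar1, the C3a receptor, lay between 1.10 CPM in VS and 2.15 CPM in FI.

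The main test was an additive model of fibrils and IT, in which each factor has 2 libraries per level and 1 residual degree of freedom remains. Its error is the departure from additivity, moderated over all genes, and not the spread between mice. With edgeR's quasi-likelihood test and Benjamini-Hochberg adjustment, 0 of 28 members passed an adjusted p of 0.05 for amyloidosis, against 4.97% of 11760 genes, and 9 had an unadjusted p under 0.05, against 21.4% of genes. For exercise, 0 of 28 passed, against 1.48% of genes, and 4 had an unadjusted p under 0.05, against 14.7%. DESeq2 on the same model also called 0 members for amyloidosis, against 4.08% of genes, with 7 at an unadjusted p under 0.05, against 11.5%, and gave no adjusted p for C7. For exercise DESeq2 called 0 members, against 182 of 11760 genes, and gave no adjusted p for 1140 genes, 3 of them members. Under an unadjusted p of 0.05 were 0 members, against 6.47% of genes. With each factor fitted alone, edgeR called 0 members for either factor, against 8 of 11760 genes for amyloidosis and 0 for exercise. In these fits 3 members were under an unadjusted p of 0.05 for amyloidosis, against 13.8% of genes. For exercise there were 0, against 5.53%.

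Closest to the threshold for amyloidosis were C7, Cfp and C8g. C7 reached 1 CPM in FS and FI only, so the filter admitted it through the libraries where it was high. Its p in this test therefore cannot count as support. By edgeR's test, C7 differed by 2.05 ± 0.50 (log2, SE) with an adjusted p of 0.0552, Cfp by 0.51 ± 0.13 with an adjusted p of 0.0661, and C8g by −0.47 ± 0.12 with an adjusted p of 0.0666. Each had the same direction in 2 of 2 pairs. C8a, with log2 ratios of 1.14 in sedentary and 0.11 in IT livers, differed by 0.62 ± 0.24 with an adjusted p of 0.196, and C8b by 0.47 ± 0.18 with an adjusted p of 0.188. The remaining members under an unadjusted p of 0.05 were Masp1, C4bp, Cd59a and C2, with adjusted p between 0.115 and 0.194. For exercise they were C4a and C6, at 0.37 ± 0.15 and 0.28 ± 0.11, and Cd59a and C8g, at −0.31 ± 0.11 and −0.28 ± 0.12, with adjusted p between 0.274 and 0.333 in edgeR's test.

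These counts changed with the settings. C7 passed for amyloidosis with limma-voom (adjusted p = 0.0496), which called 5.71% of genes, and with DESeq2's size factors in edgeR (adjusted p = 0.0386), which called 6.35%. Both used the filter that admits C7 through the fibril libraries only. Without a filter on low counts 6 of 29 members passed, against 7.62% of 19939 genes. They were C7, C8a, C8b, Cfp and Masp1, higher in fibril livers, and C8g, lower.

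The other genes of the pathway were taken from a list of 26, of which 20 could be tested. For amyloidosis 3 passed edgeR's quasi-likelihood test, against 4.97% of 11760 genes. C1qa and C1qb, chains of the C1q recognition protein that macrophages make, rose by 0.48 ± 0.11 (log2, SE, adjusted p = 0.0443) and 0.68 ± 0.11 (adjusted p = 0.0143). C1qc, the remaining chain, rose by 0.54 ± 0.13 with an adjusted p of 0.05002 in the same test. It passed with limma-voom, which called 5.71% of genes, and with DESeq2's size factors in edgeR, which called 6.35%. C1qc also passed without a filter on low counts, against 7.62% of genes, and without robust estimation, against 619 of 11760 genes. C1rb, the near copy of C1ra, fell by 0.74 ± 0.16 on the log2 scale (adjusted p = 0.0414). Its counts were 277, 242, 214 and 140 in VS, VI, FS and FI, while those of C1ra were 5981 to 7114. The 3 C1q genes summed to 115 CPM (VS), 129 CPM (VI), 174 CPM (FS) and 184 CPM (FI), beside the Kupffer cell sums given with Cfp. By DESeq2, C1qb alone was called for amyloidosis, against 4.08% of genes. With a filter at 5 CPM in 2 libraries, C1qb was again the only one called, against 410 of 8999 genes. With each factor fitted alone 0 of 20 were called, against 8 of 11760 genes, with 6 under an unadjusted p of 0.05, against 13.8%. For exercise 0 of 20 passed edgeR's test, against 1.48% of genes, with 2 under an unadjusted p of 0.05, against 14.7%. DESeq2 called 0 for exercise, against 182 of 11760 genes, with 0 under an unadjusted p of 0.05, against 6.47%.

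Beyond 2-fold were Itgam and Itgax, which encode the alpha chains of complement receptors 3 and 4, both at low counts. Itgam had 22 (VS), 12 (VI), 40 (FS) and 44 (FI) counts, with a log2 ratio of 1.84 (0.94 to 2.94) for FI over VI. In GENCODE M21, 68.7% of its exonic bases are shared with Gm49368, a gene that is not listed in the deposited counts. Itgax had 8, 6, 30 and 3 counts in the same order, with a log2 ratio of 1.52 (0.43 to 2.92) for FS over VS and −2.84 (−5.39 to −1.35) for FI over FS. Itgax reached 1 CPM in FS alone and Itgam in FS and FI only. Each was thus counted through the libraries where it was high, so these ratios cannot count as support for a difference. As a reference, 18 acute phase genes had median log2 ratios of 1.17 for FS over VS and 0.65 for FI over VI, where the complement members had 0.34 and 0.03. For VI over VS and FI over FS the acute phase medians were 0.46 and 0.11, beside 0.20 and 0.02 for the members.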

How the data were processed

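The authors pooled liver tissue of 4 mice per group, sequenced 1 library per pool, and deposited a count of reads per gene without normalization and FPKM made from those counts, gene length and the library total. The submitters' processing notes name fastp 0.23.2, STAR 2.5, HTSeq 0.6.1 and mm10; the HTSeq mode, strand setting and annotation are stated in none of the sources used. Members, arms and lists were chosen with earlier results of these data known. Named genes were all members, with full values for those beyond 2-fold, the most abundant of each arm, and those with opposite signs; other genes of the pathway only where beyond 2-fold, passing the test or needed beside a member.

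Counts were scaled by TMM (edgeR 4.0.16, limma 3.58.1, R 4.3.3). Ratios used a prior of 0.5 counts and genes reaching 1 CPM in 1 library or more, with Clopper-Pearson intervals. The additive model (3 coefficients) used robust quasi-likelihood on genes reaching 1 CPM in 2 libraries or more. It was also run on simulated counts that were additive by construction. That run does not cover departures from additivity such as that of C8a. The difference of 2 log2 ratios has a normal counting interval. Alternatives were DESeq2 1.42.0, limma-voom, DESeq2 size factors, total counts, other filters, a 1.5-fold threshold, FPKM with pseudocounts of 1 or 0.1, each factor alone, no robust estimation, and the mean of the members in place of their median. Exon overlap and 75-base words came from GENCODE M21, promoters from RefSeq.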

Additional observations from a re-analysis of the deposited data

Results flagged for a closer look

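For some members the counting intervals of one factor's ratio leave out 0 on opposite sides in vehicle and fibril livers, or in sedentary and IT livers. Each ratio is 1 library against another, so the difference between mice was not tested, and these values compare libraries. For IT, the log2 ratio in fibril livers minus that in vehicle livers was −0.54 for C4b (0.43 in vehicle, −0.11 in fibril livers), −1.03 for C8a (0.88 and −0.14), −0.79 for C9 (0.32 and −0.48), −0.46 for Cfi (0.30 and −0.16) and −0.40 for C4bp (0.07 and −0.34). For amyloidosis, the log2 ratio in IT livers minus that in sedentary livers was −0.49 for Hc (0.37 in sedentary, −0.12 in IT livers), −0.79 for C9 (0.48 and −0.31) and −0.15 for Serping1 (0.11 and −0.04). Taken for IT or for amyloidosis, the difference is the same combination of all libraries, so the value of C9 appears in both lists. Each difference thus involves the VS library, which was the lowest for all of these genes except Hc.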

How the results depend on the processing

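No paired analysis was possible because each group has 1 library, and for the same reason no library could be left out within a group. The count of members beyond 2-fold moved as follows. With a filter at 5 CPM in 1 library it was 0 for VI over VS, 0 for FI over FS, 1 for FS over VS and 0 for FI over VI. Without a filter it was 2 for VI over VS and 2 for FI over VI, where Cfd, with 12 counts in VI, was added. At 1.5-fold it was 4 for VI over VS and 5 for FS over VS. On FPKM with a pseudocount of 1 it was 0, 0, 1 and 0 for VI over VS, FI over FS, FS over VS and FI over VI, and with a pseudocount of 0.1 it was 0 for VI over VS and 0 for FI over FS, since a pseudocount pulls the ratios of low genes towards 0. The members' median log2 ratio for FI over VI was 0.0074 with total counts and with either pseudocount on FPKM, and the mean was 0.089, beside 0.03 as reported. For FI over FS the median was 0.02 as reported and −0.05 with total counts and with either pseudocount on FPKM, −0.02 with the 5 CPM filter, and the mean was −0.03. For amyloidosis, the additive model called 1 member with DESeq2 size factors, 1 with limma-voom and 6 without a filter, beside 0; the cause was not tested. Of the 112 single ratios, total counts changed the sign of 8 (C1ra, Masp2, Fcna, Serping1, Vtn and Clu for FI over FS, C4a and Vtn for FI over VI), each shift being at most 0.07 on the log2 scale, and DESeq2 size factors the sign of 1. C7, C5ar1, C3ar1 and Cfb are limited by depth, with at most 63 counts a library.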
